A study of Rattus norvegicus with 12 samples.

Results

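MHC class II molecules present peptides to T cells, and their genes were followed here through rat knee articular cartilage after joint surgery. The 8 genes were the class II chains RT1-Da, RT1-Db1, RT1-Ba and RT1-Bb, the peptide editor chains RT1-DMa and RT1-DMb, the invariant chain Cd74 and the transactivator Ciita. A row of the expression table was taken when one of these was its sole gene symbol in the annotation of the array, which gave 14 of 31099 probe sets, for 8 of 14218 genes. RNA from cartilage was hybridised to Affymetrix arrays in 4 groups of 3 arrays. These were OA (surgery that induces osteoarthritis) and Sham (its surgical control), each taken 2 weeks and 8 weeks after the operation. All 4 groups had surgery, so none shows unoperated cartilage. The labels give neither strain, age nor sex, and do not say whether the arrays numbered 1 to 3 are separate animals, so p-values measure only the spread between these samples.

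A class II molecule pairs an alpha with a beta chain: RT1-Da with RT1-Db1 (the rat counterpart of human HLA-DR) and RT1-Ba with RT1-Bb (the counterpart of HLA-DQ). Cd74 fills the peptide groove of a newly made molecule and steers it to endosomes, where the RT1-DM pair exchanges the remnant of Cd74 for antigen peptides. Dendritic cells, macrophages and B cells carry these molecules as a matter of course, and other cells can be induced to make them by interferon gamma. Ciita switches the genes on without binding DNA itself, through a complex of RFX and NF-Y proteins on an X box and a Y box upstream of each gene.

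The X and Y boxes are shown because these letters are the known common control point of the class II genes. RefSeq promoters on build GRCr8 matched 6 of the 8 genes, and RT1-DMb and Ciita were unmatched. The search used the 250 bases before the start, on both strands, for an X motif (G, any 2 bases, then ACNGATG) and a Y motif (GATTGG, which holds the reverse complement of the CCAAT box), forms chosen with these promoters in view. The motifs do not overlap below. Each line is 90 bases, 5′ to 3′ on the strand of the gene, with the motifs in capitals.
RT1-Da, chr20:4515301-4515390, plus strand: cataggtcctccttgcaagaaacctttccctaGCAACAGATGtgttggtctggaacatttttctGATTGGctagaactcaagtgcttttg
RT1-Db1, chr20:4560218-4560307, minus strand: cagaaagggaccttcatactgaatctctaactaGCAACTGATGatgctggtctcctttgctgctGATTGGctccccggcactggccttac
RT1-Ba, chr20:4576949-4577038, plus strand: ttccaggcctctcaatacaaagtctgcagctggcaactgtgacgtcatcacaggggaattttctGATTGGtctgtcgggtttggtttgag
RT1-Bb, chr20:4604155-4604244, minus strand: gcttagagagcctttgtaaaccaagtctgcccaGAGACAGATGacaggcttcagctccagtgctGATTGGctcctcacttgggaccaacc
RT1-DMa, chr20:4712375-4712464, minus strand: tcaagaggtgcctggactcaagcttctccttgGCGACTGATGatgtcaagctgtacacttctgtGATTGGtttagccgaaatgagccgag
Of the 6 matched promoters 4 held the X motif and 5 the Y motif. In RT1-Da and RT1-DMa 22 bases lay between X and Y, and in RT1-Db1 and RT1-Bb 21 did. The RT1-Ba window held the Y letters alone, and the Cd74 promoter held neither motif in these letters. Among 33469 rat promoters of the same length, 2.26% held the X motif and 13.3% the Y motif. X followed by Y on the same strand within 40 bases stood in 9 promoters (0.0269%) of 8 genes, of which 6 were class II genes: RT1-Da, RT1-Db1, RT1-Db2, RT1-Bb, RT1-DMa and RT1-DOb. The other 2 were Asb15 and Hsd17b7. A match is a run of letters and not a measured binding site.

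The values were the deposited GCRMA values on a log2 scale, on which a difference of 1 is a doubling. A probe set was tested if it lay above 4 on at least 3 arrays. This left 15934 probe sets, among them 10 of the 14 member probe sets, from 7 of the 8 genes. Differences below are from limma across all 15934 with Benjamini-Hochberg adjustment, and a call means an adjusted p under 0.05. The SE after a difference comes from that fit (n = 3 arrays per group). GCRMA compresses values near the bottom of its scale, so the sizes of differences with a group mean under 4 are not exact, and levels of different probe sets are not compared. Chondrocyte markers were bright in every group, with means of 16.07, 16.02, 16.00 and 16.20 for Col2a1 in OA at 2 weeks, Sham at 2 weeks, OA at 8 weeks and Sham at 8 weeks. The highest value of an array was 16.41 to 16.61, so Col2a1 stood near the top of the scale. How well changes show there was not tested. The share of probe sets above 4 was 48.2% to 49.8% on the 12 arrays.

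Class II genes and Cd74 read lower after OA than after Sham surgery at 8 weeks on every one of the 10 probe sets tested, but only Cd74 passed the test. That fit does not pair the arrays. With same-numbered OA and Sham arrays of a time as a block, RT1-DMb alone was called in its place. Cd74 was 10.4-fold lower, the RT1-Da probe set had the widest gap, and the RT1-DM chains, RT1-Db1 and RT1-Bb lay lower by amounts that missed the threshold. The median log2 difference over the 10 was -2.32, with a range from -4.73 to -1.08, against a median of 0.01 over all 15934. The call of 1 of 10 stands beside 1.95% of all probe sets called lower in OA at this time. An unadjusted p under 0.05 was reached by 6 of 10, against 21.5% of all. All 3 OA arrays lay below all 3 Sham arrays for 6 of 10, against 12.8% of all. Among these, RT1-Ba 1370822_at and RT1-Db1 1370383_s_at were separated by a narrow margin near the bottom of the scale. The highest OA and lowest Sham array read 2.37 and 2.39 for the former, and 3.36 and 3.42 for the latter. A difference below 0 was found for 48.9% of all.

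Cd74 read 7.89, 5.56 and 6.86 in OA arrays 1 to 3 at 8 weeks, against 8.68, 10.96 and 10.82 in Sham arrays 1 to 3. All OA arrays lay below all Sham arrays, and Sham array 1 was the closest to them. Cd74 fell by 3.38 ± 0.71 on the log2 scale in OA (adjusted p = 0.035, limma). The call depended on the fit: the adjusted p was 0.0671 with same-numbered OA and Sham arrays of a time as a block, 0.163 with only the 6 arrays compared and 0.0765 with no filter. Cd74 varied more at 8 weeks (SD 1.17 in OA arrays, 1.28 in Sham arrays) than at 2 weeks (SD 0.39 in OA arrays, 0.78 in Sham arrays), while the fit takes 1 spread for all groups. The call was also lost without OA array 2 (0.099) or 3 (0.0637) of 8 weeks, without Sham array 2 (0.126) or 3 (0.139) of 8 weeks, and without OA array 1 (0.0539), OA array 3 (0.0535) or Sham array 2 (0.0543) of 2 weeks, by limma each time. The difference stayed between -4.12 and -2.78 with any 1 array left out.

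RT1-Da, the alpha chain of the DR-type pair, read 9.84, 3.87 and 7.63 in OA arrays 1 to 3 at 8 weeks, against 10.45, 12.88 and 12.21 in Sham arrays 1 to 3. The groups did not overlap, but the OA arrays were spread widely, with array 2 under the filter level and array 1 close to Sham array 1. The difference was -4.73 ± 1.26 (adjusted p = 0.0734, limma), and it moved with the arrays kept: without OA array 1 of 8 weeks it was -6.10 (adjusted p = 0.0263, limma), and without OA array 2 it was -3.11 (adjusted p = 0.118, limma). Its partner RT1-Db1 was read by 2 probe sets, and the suffix of 1370383_s_at marks probes that can match transcripts of related genes, so a share of RT1-Db2 in it cannot be told apart. That probe set read 3.36, 3.30 and 3.25 in OA arrays at 8 weeks, against 3.42, 8.68 and 8.09 in Sham arrays. Sham array 1 lay at the level of the OA arrays, with the other Sham arrays far above. The difference was -3.43 ± 1.21 (adjusted p = 0.147, limma), and without Sham array 1 of 8 weeks it was -5.08 (adjusted p = 0.00744, limma). Without any other single array of 8 weeks it was not called, and it came to -2.45 (adjusted p = 0.379, limma) without Sham array 2 and to -2.75 (adjusted p = 0.387, limma) without Sham array 3. The second probe set, 1370382_at, read 3.52, 3.91 and 3.82 in OA arrays, against 3.92, 7.95 and 3.74 in Sham arrays. Its difference of -1.45 ± 0.95 (adjusted p = 0.417, limma) came with 1 array above 4, Sham array 2, and was -0.08 (adjusted p = 0.971, limma) without it.

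RT1-Bb, the beta chain of the DQ-type pair, read 4.74, 4.40 and 4.66 in OA arrays 1 to 3 at 8 weeks on probe set 1371065_at, against 4.73, 7.85 and 8.39 in Sham arrays 1 to 3. Sham array 1 fell within the OA range. The difference was -2.39 ± 0.75 (adjusted p = 0.113, limma), and without Sham array 1 it was -3.52 (adjusted p = 0.000516, limma). It was -1.96 (adjusted p = 0.304, limma) without Sham array 2 and -1.69 (adjusted p = 0.332, limma) without Sham array 3. Its partner RT1-Ba read 7.05, 3.51 and 2.73 in OA arrays on 1377334_at, against 4.10, 7.68 and 9.06 in Sham arrays. Here the groups overlapped, since OA array 1 lay above Sham array 1. The difference was -2.52 ± 1.39 (adjusted p = 0.329, limma). It was -3.94 without Sham array 1 (adjusted p = 0.0939), -3.83 without OA array 1 (0.165), -1.67 without OA array 3 (0.583) and -1.46 without Sham array 3 (0.684), by limma.

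RT1-DMb, the beta chain of the peptide editor, read 7.40, 7.25 and 7.48 in OA arrays 1 to 3 at 8 weeks, against 8.11, 10.26 and 10.53 in Sham arrays 1 to 3. The OA arrays lay close together and below every Sham array. The difference was -2.26 ± 0.66 (adjusted p = 0.0954, limma), with an adjusted p of 0.0477 with same-numbered arrays of a time as a block and of 0.0179 without Sham array 1 of 8 weeks, where the difference was -3.02. Without Sham array 3 it was -1.81 (adjusted p = 0.293, limma). RT1-DMa, its alpha chain, read 3.36, 3.43 and 3.37 in OA arrays, against 3.80, 4.94 and 5.81 in Sham arrays. The OA arrays again lay below every Sham array, and under the level used for the filter. The difference was -1.46 ± 0.41 (adjusted p = 0.0843, limma), and without Sham array 1 it was -1.99 (adjusted p = 0.00797, limma). Without Sham array 3 it was -0.98 (adjusted p = 0.228, limma).

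Ciita, the switch for all of these genes, was low on all 12 arrays. Probe set 1379381_at lay between 2.31 and 2.53 and 1369214_a_at between 2.02 and 2.12, so neither was tested. A change of Ciita was not detectable at this signal.

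**Figure D1:**
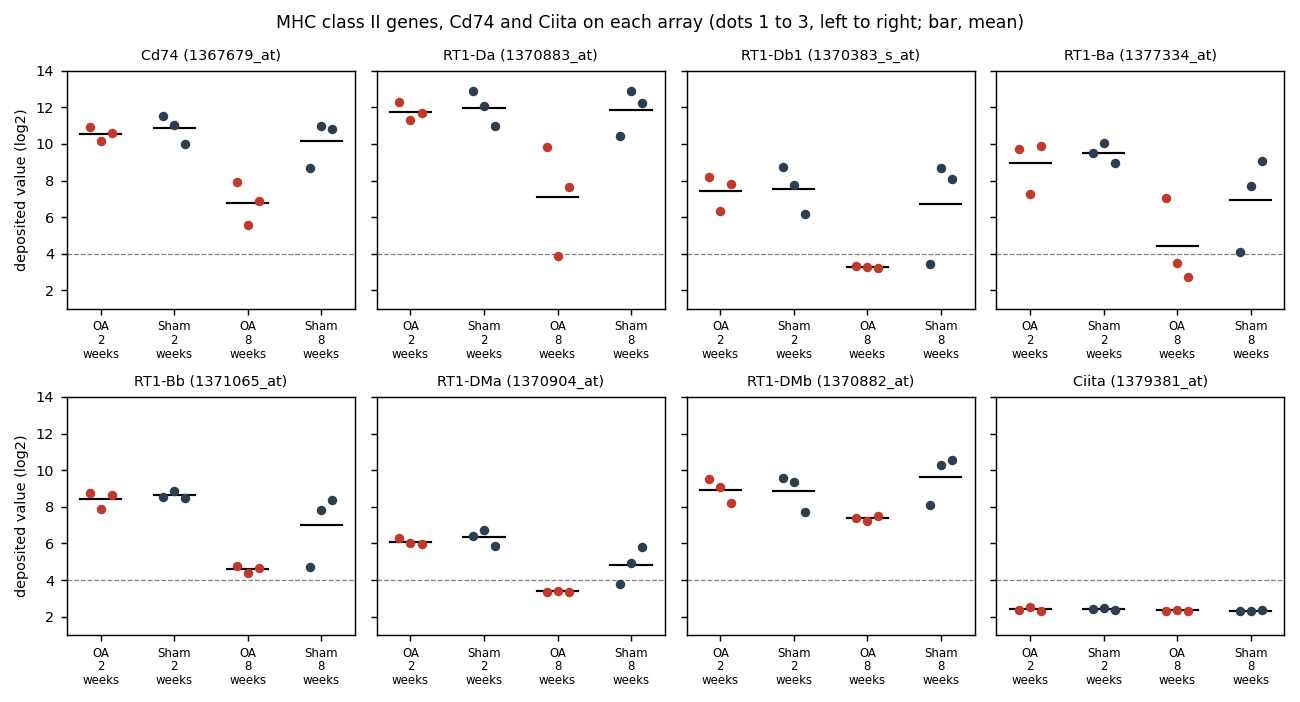
Deposited log2 value (vertical axis) of the brightest probe set of each gene on the 12 arrays, by group; dots are arrays 1 to 3 from left to right, bars are group means, and the dashed line is the filter level of 4. OA arrays at 8 weeks have the lowest group mean for 7 genes, Sham array 1 at 8 weeks sits near them for most, and Ciita does not exceed 2.53.

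On the brightest probe set of each gene, Sham array 1 of 8 weeks was the lowest Sham array of that time for all 7 genes tested. It was not the lowest on the further probe sets RT1-Db1 1370382_at and RT1-Bb 1371033_at, and it was the highest on RT1-Ba 1381593_x_at and 1392334_at. The mean of the 7 genes, each centred on its own mean over the 12 arrays, was -1.62, -3.38 and -2.72 in OA arrays 1 to 3 at 8 weeks, against -1.67, 1.18 and 1.42 in Sham arrays 1 to 3. Without Sham array 1 of 8 weeks, 5 of 10 probe sets were called lower in OA at 8 weeks. They were those of Cd74, RT1-Db1 (1370383_s_at), RT1-Bb (1371065_at), RT1-DMa and RT1-DMb. Over all 15934 probe sets 574 were then called lower, against 311 with every array. That array was the lowest Sham array on these probe sets, so leaving it out widens the difference by itself. With array weights, which count discordant arrays less, 7 were called, beside 824 of all called lower. With the number 1 arrays of both groups left out, an alternative chosen after seeing the data, 7 were called, beside 384 of all called lower. Without OA array 2 of 2 weeks and Sham array 1 of 8 weeks, also chosen after seeing the data, 5 were, beside 482 of all.

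At 2 weeks no difference between OA and Sham passed the test for the class II genes and Cd74, and the arrays of the groups overlapped for every probe set tested. Cd74 read 10.91, 10.14 and 10.59 in OA arrays 1 to 3, against 11.53, 11.01 and 9.99 in Sham arrays 1 to 3. RT1-Da read 12.31, 11.31 and 11.68 in OA arrays, against 12.88, 12.05 and 10.98 in Sham arrays. The Sham arrays spanned the OA arrays in both cases. No probe set was called among the 10, nor among all 15934 (0%), by limma. An unadjusted p under 0.05 was reached by 0 of the 10 and by 269 of all (1.69%), and a difference below 0 by 8 of the 10 and 55.0% of all. The median difference was -0.22 over the 10, with a range from -0.66 to 0.82, against -0.01 over all.

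The 95% intervals of these 2-week differences were wide. That of Cd74 ran from -1.88 to 1.30 around -0.29 and that of RT1-Da from -3.02 to 2.61 around -0.20. The narrowest, that of RT1-DMa, ran from -1.15 to 0.69 around -0.23, from 6.31, 6.01 and 5.97 in OA arrays, against 6.41, 6.71 and 5.86 in Sham arrays. RT1-DMb read 9.50, 9.07 and 8.19 in OA arrays and 9.56, 9.38 and 7.72 in Sham arrays. RT1-Bb 1371065_at read 8.74, 7.88 and 8.65 in OA arrays and 8.52, 8.87 and 8.49 in Sham arrays. In both genes array values of the groups interleaved.

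Whether the OA minus Sham difference itself changed between the times was tested as an interaction. All 10 probe sets had a more negative difference at 8 than at 2 weeks (median change -2.24, against 0.01 over all, of which 48.2% were below 0). None of the 10 was called by limma, against 0.138% of all called in either direction, and 3 had an unadjusted p under 0.05, against 11.0% of all. The change was -4.53 ± 1.78 for RT1-Da (adjusted p = 0.409), -3.09 ± 1.01 for Cd74 (adjusted p = 0.321) and -2.29 ± 0.94 for RT1-DMb (adjusted p = 0.419), all by limma. Without Sham array 1 of 8 weeks, RT1-Bb 1371065_at alone was called, with a change of -3.32 (adjusted p = 0.00672, limma).

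Between 2 and 8 weeks after OA surgery the class II genes and Cd74 fell, on 6 of the 10 probe sets and in 6 genes. Cd74 was at a mean of 6.77 ± 1.17 at 8 weeks and 10.55 ± 0.39 at 2 weeks (SD, n = 3 each), and fell by 3.78 ± 0.71 on the log2 scale (adjusted p = 0.00237, limma). The 6 calls stand beside 12.4% of all probe sets called lower, and the median over the 10 was -3.24, against 0.09 over all. All arrays of 8 weeks lay below all of 2 weeks for 8 of 10, against 17.5% of all. A difference below 0 was found for all 10, against 41.7% of all, and an unadjusted p under 0.05 for 8, against 43.9% of all. The log2 differences were -2.71 ± 0.41 for RT1-DMa (adjusted p = 0.000596) and -3.83 ± 0.75 for RT1-Bb 1371065_at (adjusted p = 0.00308), by limma. They were -4.65 ± 1.26 for RT1-Da (adjusted p = 0.0169), -4.52 ± 1.39 for RT1-Ba 1377334_at (adjusted p = 0.0295) and -4.13 ± 1.21 for RT1-Db1 1370383_s_at (adjusted p = 0.0242), by limma. RT1-DMb differed by -1.54 ± 0.66 (adjusted p = 0.1, limma). In the same comparison 9 of 14 macrophage genes (median -2.76), 5 of 5 osteoclast genes (median -2.20) and 3 of 6 endothelial genes (median -2.04) were called lower, beside 12.8% of 9247 genes, and 9 of 12 skeletal muscle genes were called higher (median 7.18), beside 16.5%. Their part in the class II result was not tested.

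The calls of RT1-Da, RT1-Ba and RT1-Db1 within OA did not hold without some arrays. Without OA array 1 of 2 weeks the adjusted p was 0.053 for RT1-Da, 0.0867 for RT1-Ba and 0.0751 for RT1-Db1, by limma, and 3 of 10 were called. RT1-Ba and RT1-Db1 also missed the threshold without OA array 3 of 2 weeks (0.0869 and 0.0657), OA array 2 of 8 weeks (0.0897 and 0.0582) or OA array 3 of 8 weeks (0.0989 and 0.0581), and RT1-Db1 without OA array 1 of 8 weeks (0.0555). RT1-Da had an adjusted p of 0.0607 with only the 6 arrays compared (limma). With the replicate number as a block over all 4 groups, RT1-Ba had an adjusted p of 0.0512 (limma).

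The same interval after Sham surgery gave 1 call of 10, beside 6.24% of all probe sets called lower. RT1-DMa read 3.80, 4.94 and 5.81 in Sham arrays 1 to 3 at 8 weeks, against 6.41, 6.71 and 5.86 in Sham arrays 1 to 3 at 2 weeks. The times did not overlap, but the highest array of 8 weeks came within a narrow margin of the lowest of 2 weeks. RT1-DMa fell by 1.48 ± 0.41 (adjusted p = 0.0302, limma), a call lost with only the 6 arrays compared (0.138), with the replicate number as a block over all 4 groups (0.0507) and without Sham array 1 (0.0878) or 2 (0.115) of 2 weeks, or Sham array 1 (0.0536, difference -0.95) or 2 (0.0672) of 8 weeks. Cd74 differed by -0.69 ± 0.71 (adjusted p = 0.65), RT1-Da by -0.12 ± 1.26 (adjusted p = 0.976) and RT1-DMb by 0.75 ± 0.66 (adjusted p = 0.576), by limma. Larger falls that were not called were those of RT1-Ba 1377334_at (-2.55 ± 1.39, adjusted p = 0.294) and RT1-Bb 1371065_at (-1.64 ± 0.75, adjusted p = 0.199), by limma. No skeletal muscle gene of 12 was called (median 2.23), beside 9.46% of 9247 genes called higher. Of 14 macrophage genes 1 was called lower (median -0.15), beside 5.39% of the 9247. Of 5 osteoclast genes (median -0.07) and 6 endothelial genes (median -0.83) 0 were called. The median over the 10 was -0.76, with a range from -2.55 to 1.01, against 0.08 over all. Of the 10, 7 lay below 0, against 36.2% of all. The labels give no scan or extraction batch, and any that went with the time point cannot be told apart from it. Array medians were 0.17 higher at 8 weeks within Sham and 0.18 higher within OA. With array medians made equal, 49.6% in place of 66.6% of all calls within Sham were higher at 8 weeks, and 43.2% in place of 63.7% within OA, while 1 and 6 member probe sets were still called lower.

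**Figure D2:**
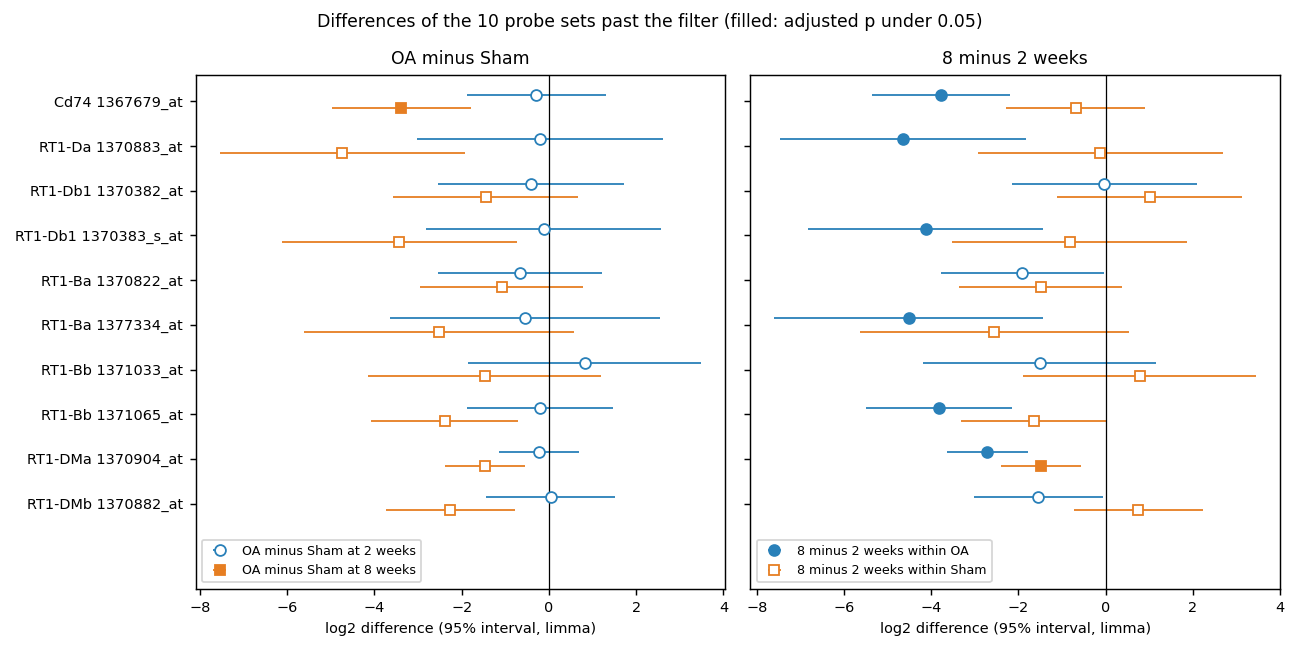
Log2 differences (horizontal axis) of the 10 member probe sets past the filter with 95% intervals from limma; left, OA minus Sham at 2 weeks (circles) and 8 weeks (squares); right, 8 minus 2 weeks within OA (circles) and within Sham (squares); filled symbols have an adjusted p under 0.05. The filled symbols are Cd74 for OA minus Sham at 8 weeks, 6 probe sets within OA and RT1-DMa within Sham.

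Ordered by group mean on the brightest probe set, OA at 8 weeks was lowest for 7 of 7 genes. In 5 genes (Cd74, RT1-Db1, RT1-Ba, RT1-Bb and RT1-DMa) the order from the highest down was Sham at 2 weeks, OA at 2 weeks, Sham at 8 weeks and OA at 8 weeks. RT1-Da had Sham at 8 weeks above OA at 2 weeks, and RT1-DMb had Sham at 8 weeks first. Arrays of the 2 highest groups overlapped in all 7 genes, and those of the 2 middle groups in 6, RT1-DMa being the exception. Arrays of OA at 8 weeks did not overlap those of the next group in 5 genes, and did in RT1-Ba and RT1-Bb. The next group was OA at 2 weeks for RT1-Da, Sham at 2 weeks for RT1-DMb and Sham at 8 weeks for the others. The shares of all genes with this order or this separation were not counted, so these counts only describe the members. In RT1-Db1, counted among the 5, the margin was narrow and near the bottom of the scale. There the highest OA array of 8 weeks read 3.36 and the lowest Sham array of 8 weeks 3.42.

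The RT1-B genes had probe sets that did not run together. Of the 4 RT1-Ba probe sets, 1381593_x_at read 7.46 in OA array 2 of 2 weeks and 7.34 in Sham array 1 of 8 weeks, and between 1.39 and 1.63 on the other 10 arrays. Likewise 1392334_at read 8.46 and 7.80 in the same 2 arrays, and between 1.38 and 1.42 elsewhere. Both failed the filter, since only 2 arrays lay above 4. In these 2 arrays 1377334_at, also of RT1-Ba, was the lowest of its group: it read 9.72, 7.26 and 9.86 in OA arrays 1 to 3 of 2 weeks and 4.10, 7.68 and 9.06 in Sham arrays 1 to 3 of 8 weeks. RT1-Bb 1371033_at also read highest in OA array 2 of 2 weeks, with 2.92, 7.17 and 2.64 in OA arrays 1 to 3, but in Sham at 8 weeks it was highest in array 2 (3.76, 6.16 and 2.70). The fourth RT1-Ba probe set, 1370822_at, read 2.37, 2.35 and 2.37 in OA at 8 weeks, against 2.39, 5.55 and 2.39 in Sham at 8 weeks, so that 2 Sham arrays lay almost at the level of the OA arrays. Its OA minus Sham difference was -1.08 ± 0.84 (adjusted p = 0.501, limma), and -0.03 (adjusted p = 0.993, limma) without Sham array 2.

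**Figure D3:**
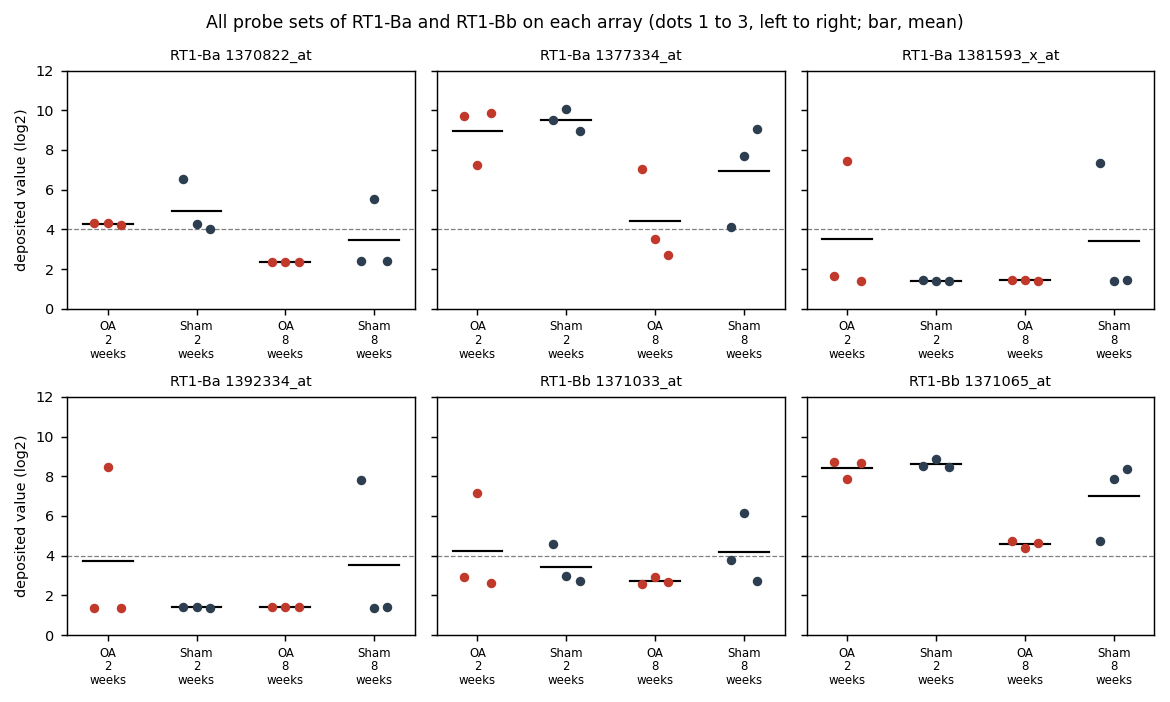
Deposited log2 value (vertical axis) of the 4 RT1-Ba and 2 RT1-Bb probe sets on the 12 arrays, by group; dots are arrays 1 to 3 from left to right, bars are means and the dashed line is the filter level of 4. On 1381593_x_at and 1392334_at OA array 2 of 2 weeks and Sham array 1 of 8 weeks lie above 7 and the other arrays below 2.

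Across the 12 arrays the 7 genes varied together. Pearson's r between their brightest probe sets ran from 0.595 to 0.97 over the 21 pairs, with a median of 0.858, and after each group mean was taken off it ran from 0.317 to 0.901, with a median of 0.735. The points share arrays and their scaling, so these are descriptions. Among 9179 other genes, those most like RT1-Da over the 12 arrays were S1pr1 (r = 0.936), Grb14 (0.932), Ap2a2 (0.928), Mcm7 (0.925), Apoe (0.922), Clec14a (0.921), Cnrip1 (0.92), Gjc1 (0.919), Agtr2 (0.917) and Igfbp5 (0.916). S1pr1 is a receptor for sphingosine 1-phosphate and Apoe a lipid carrier protein. With group means taken off they were Rsf1 (0.973), Vim (0.973), Stk19 (0.967), Klc1 (0.945), Aldh2 (0.934), Phyhd1 (0.925), Mknk2 (0.923), Cs (0.922), Fam89b (0.912) and Psmd2 (0.911). No gene stood in both lists of 10. Vim, which encodes the filament protein vimentin, had r = 0.151 with RT1-Da when group means were left in.

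Genes that act on class II genes or molecules were counted by gene, with the brightest tested probe set of each, beside 2.45% of 9247 genes called lower and 1.03% called higher in OA than in Sham at 8 weeks. A difference below 0 was found for 5124 of the 9247. Of the RFX, NF-Y and CREB genes of the promoter complex, 0 of 6 were called (median 0.01). Nfyc, an NF-Y subunit, differed by -0.36 ± 0.10 (adjusted p = 0.09) and Rfx5, an RFX subunit, by -0.35 ± 0.13 (adjusted p = 0.156), by limma. Of the interferon gamma pathway 0 of 5 tested genes were called, all 5 below 0 (median -0.49). The receptor genes Ifngr2 and Ifngr1 differed by -0.49 ± 0.15 (adjusted p = 0.112) and -0.74 ± 0.24 (adjusted p = 0.123), and the transcription factor gene Irf1 by -0.92 ± 0.32 (adjusted p = 0.146), by limma. Ifng, Irf8 and Socs1 did not pass the filter.

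Of 10 genes of class II peptide loading and turnover, 0 were called and 8 lay below 0 (median -0.35). Ifi30, a thiol reductase that unfolds antigens, differed by -0.99 ± 0.29 (adjusted p = 0.0939), the protease gene Ctsh by -0.68 ± 0.26 (adjusted p = 0.164) and Ctss, whose protease trims Cd74, by -1.68 ± 0.80 (adjusted p = 0.259), by limma. Marchf1, a ubiquitin ligase gene that lowers surface class II, was picked after its values were seen: it differed by -0.08 ± 0.24 between OA and Sham at 8 weeks, but fell between 2 and 8 weeks, with differences of -2.62 within OA and -2.64 within Sham (adjusted p = 1.72e-05 and 1.85e-05, limma). Its means at 8 weeks were 3.03 in OA and 3.11 in Sham, so the sizes of these falls are not exact. Of all 9247 genes 12.8% were called lower over this interval within OA and 5.39% within Sham. Among co-stimulatory genes only Cd83 passed the filter, with a difference of -0.91 ± 0.38 (adjusted p = 0.207, limma), and Cd40, Cd80 and Cd86 did not pass. Class I presentation genes gave 0 calls of 12 (median -0.16). The immunoproteasome genes Psmb10 and Psmb8 differed by -0.45 ± 0.15 (adjusted p = 0.135) and -1.79 ± 0.65 (adjusted p = 0.154), by limma. At 2 weeks 0 genes of these lists were called.

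Markers of cells that carry class II were read on the same arrays. Macrophage markers lay below 0 in 14 of 14 tested genes (median -2.41) in OA against Sham at 8 weeks, against 5124 of all 9247 genes. By limma 3 fell: Cd68 (-6.46 ± 0.45, adjusted p = 0.000172), Laptm5 (-2.54 ± 0.32, adjusted p = 0.00513) and Csf1r (-1.93 ± 0.27, adjusted p = 0.00807). Cd68 had a mean of 2.54 in OA at 8 weeks, so the size of its fall is not exact. The smallest differences were those of Cd14 (-0.10 ± 0.37, adjusted p = 0.912) and Lyz2 (-0.72 ± 0.52, adjusted p = 0.465), by limma. The mean centred level of the 14 genes was -2.18, -1.86 and -2.04 in OA arrays 1 to 3 at 8 weeks, against -1.20, 1.16 and 1.59 in Sham arrays 1 to 3. Sham array 1 was the lowest Sham array here as for class II, but here it lay above every OA array. At 2 weeks it ranged from 0.06 to 1.14 in OA and from -0.35 to 1.60 in Sham. The macrophage genes Itgam, Cd163 and Cx3cr1 did not pass the filter. Their part in the class II result was not tested, and in bulk RNA fewer cells of a type and less RNA per cell cannot be told apart. Of 4 dendritic cell genes with a probe set, 0 passed the filter. Of the B cell genes 2 passed, of which Ms4a1 differed by -1.78 ± 0.71 (adjusted p = 0.188) and Cd22 by -0.05 ± 0.18 (adjusted p = 0.922), and of the T cell genes Cd3e alone passed (0.04 ± 0.18, adjusted p = 0.935), by limma.

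Markers of other tissues were read at 8 weeks as well. All 5 tested osteoclast genes fell by limma (median -2.53), among them Ctsk (-1.31 ± 0.16, adjusted p = 0.00499), Mmp9 (-3.62 ± 0.45, adjusted p = 0.00499) and Itgb3 (-3.46 ± 0.48, adjusted p = 0.00753). Endothelial genes gave 0 calls of 6 (median -1.20), with Kdr at -1.35 ± 0.38 (adjusted p = 0.0863) and Tek at -2.17 ± 0.64 (adjusted p = 0.0954). Chondrocyte genes had a median of -0.08 and 1 call of 7, Col9a1 (-0.48 ± 0.10, adjusted p = 0.0296), while Col2a1 differed by -0.20 ± 0.08 (adjusted p = 0.196). Skeletal muscle genes gave 0 calls of 12 with a median of 5.19, with Neb at 5.84 ± 1.61 (adjusted p = 0.0786), Mybpc2 at 5.76 ± 1.67 (adjusted p = 0.0935) and Ttn at 5.67 ± 1.76 (adjusted p = 0.11). The mean centred muscle level was 6.82, 3.54 and 2.07 in OA arrays 1 to 3 at 8 weeks, against 2.69, -2.77 and -0.47 in Sham arrays 1 to 3, and at 2 weeks -3.12 to 0.06 in OA and -2.69 to -1.58 in Sham. Sham array 1 of 8 weeks thus lay in the range of the OA arrays for muscle markers, as for class II. For endothelial markers it did too, with -0.76, against -0.75, -1.58 and -1.50 in OA arrays 1 to 3. It did not for macrophage or osteoclast markers. The mean centred level of osteoclast markers at 8 weeks was 0.49, 0.55 and 0.83 in Sham arrays 1 to 3, against -2.56, -1.41 and -1.22 in OA arrays 1 to 3. The part of muscle RNA in the class II result was not tested.

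**Figure D4:**
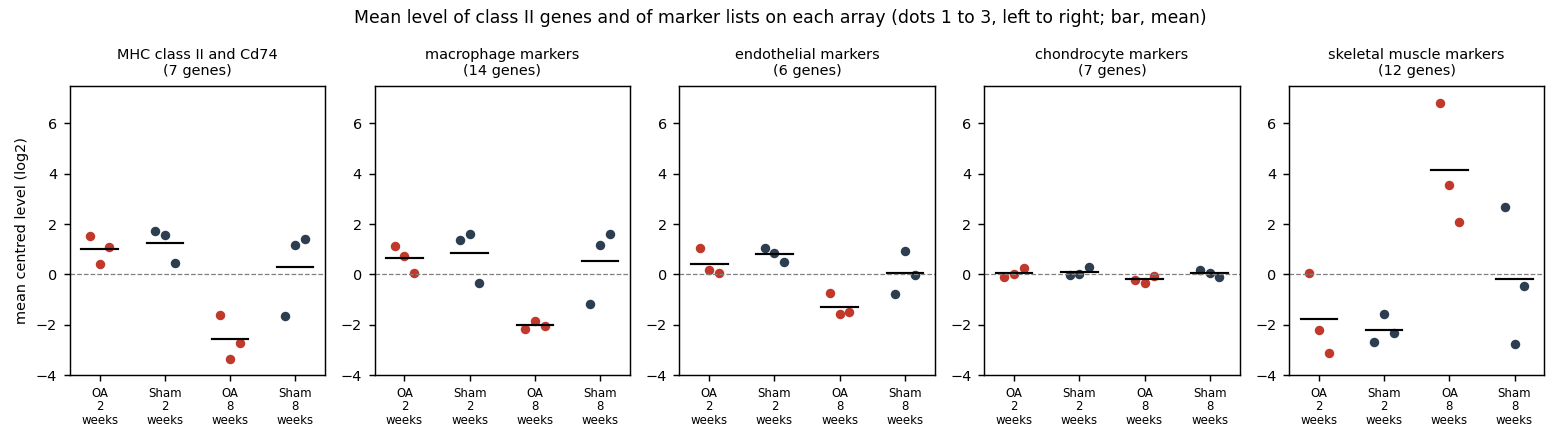
Mean log2 level (vertical axis, each gene centred on its mean over the 12 arrays) of the 7 tested member genes (class II genes, with Cd74 among the 7), and of macrophage, endothelial, chondrocyte and skeletal muscle markers on each array, by group; dots are arrays 1 to 3 from left to right and bars are means. At 8 weeks Sham array 1 lies at -1.67 for class II, -1.20 for macrophage and 2.69 for muscle markers, while chondrocyte markers stay within -0.32 and 0.30 on all arrays.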

How the data were processed

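Gene expression was read from 12 one-colour Affymetrix arrays, 3 per group, grouped by the surgery and time in the labels. The authors deposited log2 values made with GCRMA, per the submitters' processing notes, whose version is not given in the sources used here. No further normalization was applied. Of 31099 probe sets, 57 controls were left out, and 15934 had log2 above 4 on at least 3 arrays and were tested. All 12 arrays entered 1 linear model (limma 3.58.1, R 4.3.3) that gives each group its own mean (8 residual and 1.94 prior degrees of freedom). It was tested on simulated data. Adjusted p-values are Benjamini-Hochberg over all 15934. Of the probe sets, 20832 carry 1 gene symbol, and gene counts use the brightest tested probe set of each of 9247 genes. The number of arrays limits the precision.

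Members, the 15 lists and the motif forms were chosen with earlier results of these data known. The rule named each member with every probe set, the 2 to 4 genes of each list with the smallest unadjusted p for OA minus Sham at 8 weeks, and the 10 genes most like the brightest member. Of these lists, 3 further class II genes had no probe set with a single symbol.

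The labels' replicate numbers were checked for pairing. Deviations from group means of same-numbered OA and Sham arrays correlated at 0.333, 0.36 and 0.527 at 2 weeks and at 0.239, 0.237 and 0.119 at 8 weeks, which all exceed the 0.1 taken as pairing within a time. One differently numbered pair, OA array 3 with Sham array 2 at 8 weeks, was also above it (0.142). Across the times, same-numbered arrays of one surgery correlated at -0.497 to 0.237. The main fit does not use this pairing, and blocked values stand beside the member calls they change. Genes of the other lists were read from the main fit alone. How their calls depend on the pairing or on single arrays was not tested. The labels do not say what a number marks. Tables were built with pandas 2.3.3 and numpy 2.4.6, and plots with matplotlib 3.10.9, in Python 3.11.15.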

Additional observations from a re-analysis of the deposited data

Results flagged for a closer look

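Cd68, a macrophage and lysosome gene, was the one gene named here whose OA minus Sham difference changed between the times by the interaction test: the difference was more negative at 8 than at 2 weeks (change in the log2 difference -5.94, adjusted p = 0.00787, limma). Its mean was 2.54 in OA and 9.01 in Sham at 8 weeks, and 8.89 in OA and 9.41 in Sham at 2 weeks. With the OA mean at 8 weeks under 4, the size of this change is not exact.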

How the results depend on the processing

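The number of member probe sets called in OA minus Sham at 8 weeks was 1 as reported, and 0 with no filter, the replicate block over all 4 groups or only the groups compared, 7 with array weights, 0 to 5 with 1 array left out, 7 without both number 1 arrays of 8 weeks and 5 without OA array 2 of 2 weeks and Sham array 1 of 8 weeks (the last 2 were chosen after seeing the data). With the replicate block within each time it was again 1, RT1-DMb in place of Cd74, and with the replicate block over all 4 groups Cd74 had an adjusted p of 0.0554. For the interaction the count was 0 as reported, 0 to 1 with 1 array left out, and 2 and 1 with those pairs of arrays left out. Within Sham it was 1 as reported, 0 with the replicate block over all 4 groups, with only the groups compared and with either pair left out, and 0 to 1 with 1 array left out. Within OA it was 6 as reported, 5 with the replicate block over all 4 groups (which ends the call of RT1-Ba 1377334_at), 7 with only the groups compared and 3 to 7 with 1 array left out. At 2 weeks it was 0 under every alternative run. The block within a time could not be fitted for differences between times.

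Over all probe sets, 552 were called at 8 weeks, against 362 with no filter, 828 with quantile normalization, 284 with equal medians, 1567 with array weights, 1037 with the block within time, 27 with only the groups compared, 110 to 979 with 1 array left out and 851 without OA array 2 of 2 weeks and Sham array 1 of 8 weeks. The interaction had 22, against 8 with no filter, 38 with quantile normalization, 14 with equal medians, 130 with array weights, 67 with the block within time, 7 to 80 with 1 array left out and 130 without both number 1 arrays. Within Sham there were 2979, against 6938 with no filter and 1523 with a filter at log2 6, and within OA 5430 against 9461 with no filter. With quantile normalization 51.4% of calls within Sham and 49.0% within OA were higher at 8 weeks.

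Of the log2 differences of single probe sets, 1051 kept direction and side of the threshold, 31 lost and 31 gained a call, and 42 changed sign, in values that were not called as reported. At 2 weeks the ranges with 1 array left out crossed 0 for Cd74 (-0.72 to 0.050), RT1-Da (-0.70 to 0.25), RT1-Db1 1370382_at (-0.73 to 0.14) and 1370383_s_at (-0.80 to 0.45), RT1-Ba 1370822_at (-1.13 to 0.13) and 1377334_at (-1.01 to 0.29), RT1-Bb 1371033_at (-0.64 to 1.62) and 1371065_at (-0.36 to 0.068) and RT1-DMb (-0.55 to 0.40). Array weights gave -0.29 for RT1-DMb and -0.14 for RT1-Bb 1371033_at. Without OA array 2 of 2 weeks and Sham array 1 of 8 weeks the 2-week values were 0.022 for RT1-Da, 0.44 for RT1-Db1 1370383_s_at, 0.29 for RT1-Ba 1377334_at, -0.64 and 0.068 for RT1-Bb 1371033_at and 1371065_at, and -0.037 for RT1-DMb. Within Sham the ranges were -1.11 to 0.048 for Cd74, -0.64 to 0.58 for RT1-Da, -0.36 to 1.74 for RT1-Db1 1370382_at, -1.80 to 0.83 for 1370383_s_at and -0.19 to 1.54 for RT1-Bb 1371033_at, and either pair left out gave 0.048 for Cd74, 0.58 for RT1-Da and 0.83 for RT1-Db1 1370383_s_at. Within OA RT1-Db1 1370382_at ran from -0.18 to 0.18, with 0.092 under array weights and 0.081 and 0.18 with the pairs left out. For the interaction RT1-Db1 1370382_at ran from -1.77 to 0.33 and RT1-Ba 1370822_at from -1.22 to 0.63, with 0.13 under array weights. The causes were not tested. With 3 arrays per group, sizes at means under log2 4 are not exact.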
